A study of Caenorhabditis elegans with 2 samples.

Results

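Homeobox genes encode transcription factors that bind DNA through a homeodomain, and in Caenorhabditis elegans they set body regions and the identities of neurons, muscles and vulval cells. The homeobox genes described here are the protein-coding genes of the WBcel235 (ce11) Ensembl annotation whose symbol starts with ceh-, with 22 others chosen by name, such as the Hox gene lin-39 and the LIM gene mec-3. They number 85 of the 19973 protein-coding genes on the 6 chromosomes. The series measured, by sequencing of immunoprecipitated chromatin (ChIP-seq), where the tagged protein NHR-237 sat on DNA. NHR-237 is a nuclear hormone receptor, and these genes are described as places where candidate regions lay, not by their expression.

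The single group consists of whole L3 larvae, male and female together, of strain OP228, genotype unc-119(ed3) III; wgIs228. All animals carried the eGFP-tagged nhr-237 insertion, in both biological replicates, and no untagged or otherwise treated group was analysed here. The age is given as unknown, and whole animals mix all cell types, so binding in a few cells could not be told from weak binding in many. The values are the authors' own peak signals, with scale and read depth not given, in lists of 30000 regions each for replicate 1, replicate 2 and the pooled replicates, plus 48 peaks past the authors' irreproducible discovery rate (IDR) threshold.

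For each homeobox gene the window was the gene body and 2000 bp upstream of its start, and the value was the highest signal of any region with its summit there. A rank of 1 is the highest signal in a list. Nuclear hormone receptors bind DNA as single proteins or pairs through a pair of zinc fingers, often at sites with the half-site AGGTCA. Homeobox genes are themselves regulated by other transcription factors through enhancers in introns and upstream sequence.

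None of the 85 homeobox genes had an IDR peak in its window, where 37 of all protein-coding genes did (0.185%). The highest pooled signal of any homeobox gene was 31.3, at ceh-83, below the 42.7 of the lowest IDR peak. The lowest was 13.999, at ceh-100, beside 13.8 for the lowest region of the whole pooled list. The homeobox values thus lay in the part of the pooled list that the authors' threshold left out, and that part contains background regions by its own name.

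Candidate summits were nevertheless present at most homeobox genes. A pooled summit lay in 78 of 85 windows, against 75.6% of all protein-coding genes. Replicate 1 had a summit in 75 windows (75.3% of all genes) and replicate 2 in 76 (75.9% of all genes). All 3 lists had one in 67 windows, or 78.8%, against 57.4% of all genes. The pooled list was made from the reads of both replicates, so it is not a further replicate. No test of the difference between homeobox genes and other genes was made, and each share is a description.

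Homeobox genes had long windows, with a median of 5306 bp against 4027 bp, and a long window can hold more summits. All genes were therefore split into 3 bins of nearly equal size by window length, with limits at 3458 and 4917 bp. In the long bin a pooled summit lay in 44 of 47 homeobox windows, against 88.5% of all genes there. In the middle bin it lay in 24 of 27, against 76.0%, and in the short bin in 10 of 11, against 62.3%. In replicate 1 the counts were 42 in the long, 23 in the middle and 10 in the short bin, against 88.2%, 76.4% and 61.3% of all genes. Replicate 2 gave 45, 23 and 8, against 89.2%, 75.3% and 63%. The share at homeobox genes was above that of all genes in each bin and list, by least in the long bin. Per length, the homeobox windows held 0.306 pooled regions per kb and all windows 0.309, with 0.333 against 0.308 in replicate 1 and 0.337 against 0.311 in replicate 2. The regions per kb at homeobox genes were thus close to those at all genes in the pooled list and somewhat above them in each replicate.

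**Figure D1:**
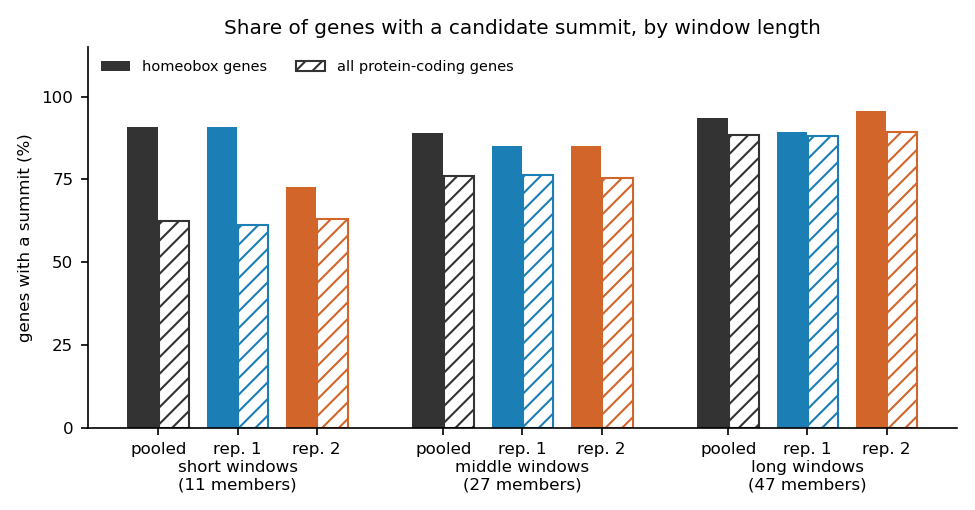
Share of genes (%, vertical axis from 0) with at least 1 candidate summit in the window, for short, middle and long windows and for the pooled, replicate 1 and replicate 2 lists. Filled bars are the homeobox genes and hatched bars all protein-coding genes; the bars of both sets are closest to each other in the long bin, which holds 47 of the 85 homeobox genes.

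The height of the regions was near that of genes at large. Over the homeobox genes with a pooled summit the highest signal had a lowest value of 13.999, a median of 20.4 and a maximum of 31.3, against a median of 19.7 and a maximum of 135 over all genes. In replicate 1 the median was 11.5 (range 7.68 to 22.3) against 11.3, and in replicate 2 it was 11.1 (range 7.79 to 18.5) against 11.1. The order of the pooled medians changed with 1000 bp upstream (19.1 against 19.3) and with the gene body alone (18.8 against 19.1). Just 3 homeobox genes had a region among the top 1000 of the pooled list, ceh-83, ceh-75 and ceh-30, against 5.28% of all genes. Replicate 1 had 1 such gene, ceh-63 (5.12% of all genes), and replicate 2 had 2, ceh-83 and ttx-3 (5.06% of all genes). By window length the pooled top 1000 held 1 homeobox gene of the short bin (3.27% of all genes), 2 of the middle bin (4.70%) and 0 of the 47 of the long bin (7.86%). The pooled top 1000 share depended on the window: with 5000 bp upstream it held 9 of the 85, above the 8.4% of all genes.

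Each list was also divided by rank into 4 equal parts. In the pooled list, 38 of the 78 genes had their highest region in the part of highest signal, against 41.5% of all genes with a summit. The next parts held 22 (27.1% of all genes), 9 (18.3%) and 9 (13.1%). In replicate 1 the parts held 33, 26, 8 and 8 of 75 genes, against 41.2%, 27.7%, 18.7% and 12.4%. In replicate 2 they held 30, 22, 19 and 5 of 76, against 41.8%, 27%, 18.4% and 12.7%. The top part thus held 48.7% of the homeobox genes in the pool but 39.5% in replicate 2, above and below the share of all genes.

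**Figure D2:**
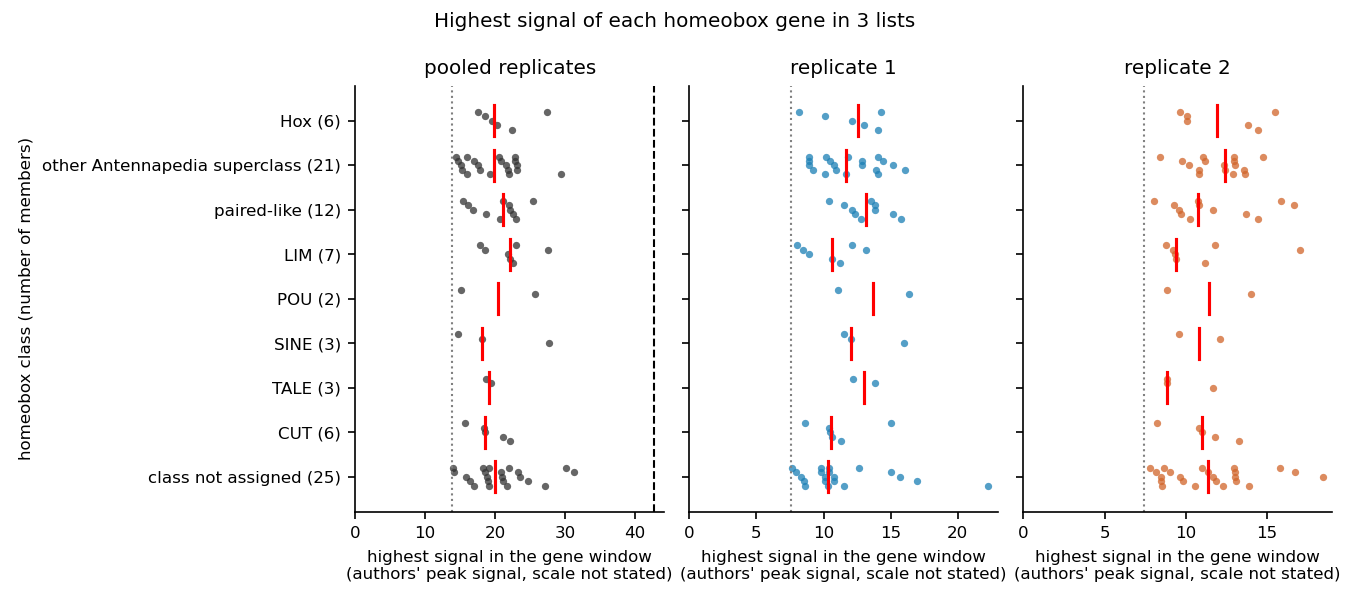
Highest signal of each homeobox gene (points) in the pooled, replicate 1 and replicate 2 lists, by homeobox class, with the class median as a red line. The horizontal axes are the authors' signal from 0, the dotted line is the lowest signal of each list and the dashed line the lowest IDR peak (42.7); all pooled points lie left of the dashed line, the highest at 31.3.

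The sequences at the summits of the 6 homeobox genes of highest pooled signal that were matched in both replicates, within the limits given under processing, are shown because the pooled signal was highest there and both replicates had a summit. A pooled summit was counted as matched when a replicate summit lay within 100 bp. Each runs from 50 bases before to 50 after the pooled summit on the plus strand of WBcel235 (ce11), and capitals mark matches to the motifs searched, which are named below.
ceh-83, chrII:1737862-1737962: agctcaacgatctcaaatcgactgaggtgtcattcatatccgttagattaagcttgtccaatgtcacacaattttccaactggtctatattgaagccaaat
ceh-75, chrV:9922104-9922204: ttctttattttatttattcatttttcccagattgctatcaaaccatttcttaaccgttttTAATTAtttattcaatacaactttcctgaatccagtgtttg
ceh-30, chrX:3063165-3063265: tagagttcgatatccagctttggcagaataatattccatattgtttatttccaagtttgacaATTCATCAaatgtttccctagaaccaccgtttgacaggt
lim-6, chrX:1075976-1076076: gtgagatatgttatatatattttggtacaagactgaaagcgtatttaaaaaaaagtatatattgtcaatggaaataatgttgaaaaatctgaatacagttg
lin-39, chrIII:7536979-7537079: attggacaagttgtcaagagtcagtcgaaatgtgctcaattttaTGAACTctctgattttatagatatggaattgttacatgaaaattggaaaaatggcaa
ceh-18, chrX:3843466-3843566: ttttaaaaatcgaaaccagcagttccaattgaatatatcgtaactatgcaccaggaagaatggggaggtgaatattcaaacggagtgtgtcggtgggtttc

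The motifs were AGGTCA and AGTTCA (nuclear receptor half-sites), TAATTA (a homeodomain core), TGATNNAT (a site type of Hox proteins with their cofactors), and 3 others, namely GAGAGA, then CCCTGC and also GCGCGA, each on both strands, and none contains another. In the bases shown, TAATTA was present at ceh-75, TGATNNAT at ceh-30 in reverse and AGTTCA at lin-39 in reverse. The bases shown for ceh-83, lim-6 and ceh-18 held none of the 7. GC content ran from 24.8% at lim-6 to 40.6% at ceh-18.

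Within 100 bp of the 77 distinct highest summits of the homeobox genes, AGGTCA was found at 3 (3.90%), those of ceh-5, ceh-6 and ceh-76, against 5.01% of all 30000 pooled regions. AGTTCA was at 9 (11.7% against 14.3%), among them those of lin-39, nob-1 and ceh-32. TAATTA was at 9 (11.7% against 8.89%), including lim-6, nob-1 and ceh-37, and TGATNNAT at 10 (13% against 15.6%). GAGAGA was at 5 (6.49% against 11.5%). CCCTGC and GCGCGA were each at 0 of 77, against 2.32% and 2.35% of pooled regions. GC content at these summits was 36.4% ± 5.78 (SD over 77 summits) against 36.6% ± 6.44 over all pooled summits. The differences in these shares were not tested.

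The gene of highest pooled signal was ceh-83, a homeobox gene on chromosome II (WBGene00018446, 1733716 to 1736533, minus strand). Its region spanned II 1737737 to 1738086, with the summit 1379 bp upstream. The signal there was 31.3 in the pool (rank 418), 10.1 in replicate 1 (rank 14471) and 18.5 in replicate 2 (rank 452). Replicate 2 therefore placed this region among its highest and replicate 1 near the middle of its list, although the summits of the replicates were 13 bp apart. The summit also lay in the windows of irld-9 and irld-33, and the start of irld-9 was nearer, at 1032 bp.

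The second, ceh-75 (WBGene00008242), had a pooled signal of 30.1 (rank 608) at V 9921979 to 9922328, in an exon 817 bp from its start. Here the order of the replicates was the opposite, with 15.7 in replicate 1 (rank 1853) and 9.67 in replicate 2 (rank 15468). The start of C50H2.7 was nearer to this summit, at 627 bp. The third, ceh-30 (WBGene00000451), a Bar-class gene needed for survival of the male CEM neurons, had 29.5 (rank 745) at X 3063040 to 3063389, 359 bp upstream. Its replicates were near each other, at 14.1 (rank 3514) and 14.7 (rank 2410). Of the 3 homeobox genes in the pooled top 1000, ceh-30 was the one whose own start was the nearest to the summit.

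**Figure D3:**
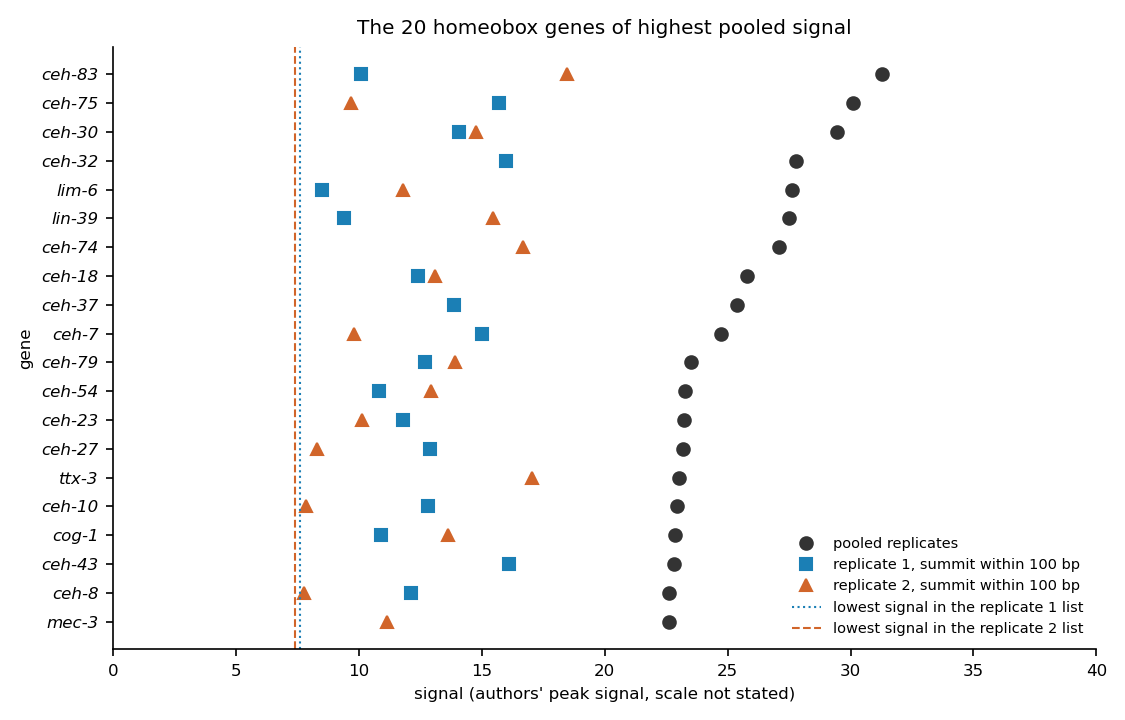
Signal at the highest pooled region of the 20 homeobox genes of highest pooled signal (circles), with the signal of the region matched within 100 bp in replicate 1 (squares) and replicate 2 (triangles). The horizontal axis is the authors' signal, the vertical lines mark the lowest signal in each replicate list, and a missing square or triangle means that no summit of that list was within 100 bp, as for ceh-32, ceh-74, ceh-37, ttx-3, ceh-43 and mec-3.

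The Hox genes act along the body axis, ceh-13 (the labial type) in front, lin-39 in the midbody and vulval precursor cells, mab-5 behind it, and egl-5, nob-1 and php-3 (the Abdominal-B type) in the posterior. All 6 had a summit in each of the 3 lists, against 57.4% of all genes. Their median window of 6931 bp lay in the long bin, where 88.5% of all genes had a pooled summit. The pooled signal was highest at lin-39, with 27.5 (rank 1337), followed by nob-1 with 22.4 (rank 5036) and php-3 with 20.2 (rank 8470). It was 19.5 at egl-5 (rank 9866), 18.5 at ceh-13 (rank 12296) and 17.6 at mab-5 (rank 14975). Their median was 19.9, close to the 19.7 of all genes.

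The highest region of lin-39 (WBGene00003024) spanned III 7536854 to 7537203, 397 bp upstream of the start. At that location the signal was 9.40 in replicate 1 (rank 18021) and 15.5 in replicate 2 (rank 1748). Replicate 1 had its own highest lin-39 region farther upstream, at 1814 bp, with 13.01 (rank 5268), where replicate 2 had 7.89 (rank 26337). The replicates thus shared both upstream locations and ordered them differently. Another location, in an intron 3413 bp from the start, had 14.8 in replicate 2 (rank 2383) and a pooled signal of 20.09, and replicate 1 had no summit there.

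The replicates shared less at the other Hox genes. At ceh-13 the pooled summit was 1218 bp upstream, with 13.8 in replicate 2 (rank 3464) and no match in replicate 1, whose single region in the window had 8.18 (rank 25663). At egl-5 the pooled summit 1408 bp upstream likewise had a match in replicate 2 alone, with 14.4 (rank 2755), and the 3 regions of replicate 1, of at most 10.1, lay inside the gene. In contrast, the mab-5 summit in an intron had a match in replicate 1 alone, with 13.3 (rank 4702). For nob-1 the highest pooled summit, in an intron, had no summit within 100 bp in either replicate, and the nearest of replicate 1 had 14.3 (rank 3232) at 1172 bp from the start against 1294 bp in the pool. The highest php-3 region was 1925 bp upstream of php-3 and also inside nob-1, its neighbour, and was matched in both replicates, with 10.1 (rank 14259) and 10.04 (rank 13726).

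**Figure D4:**
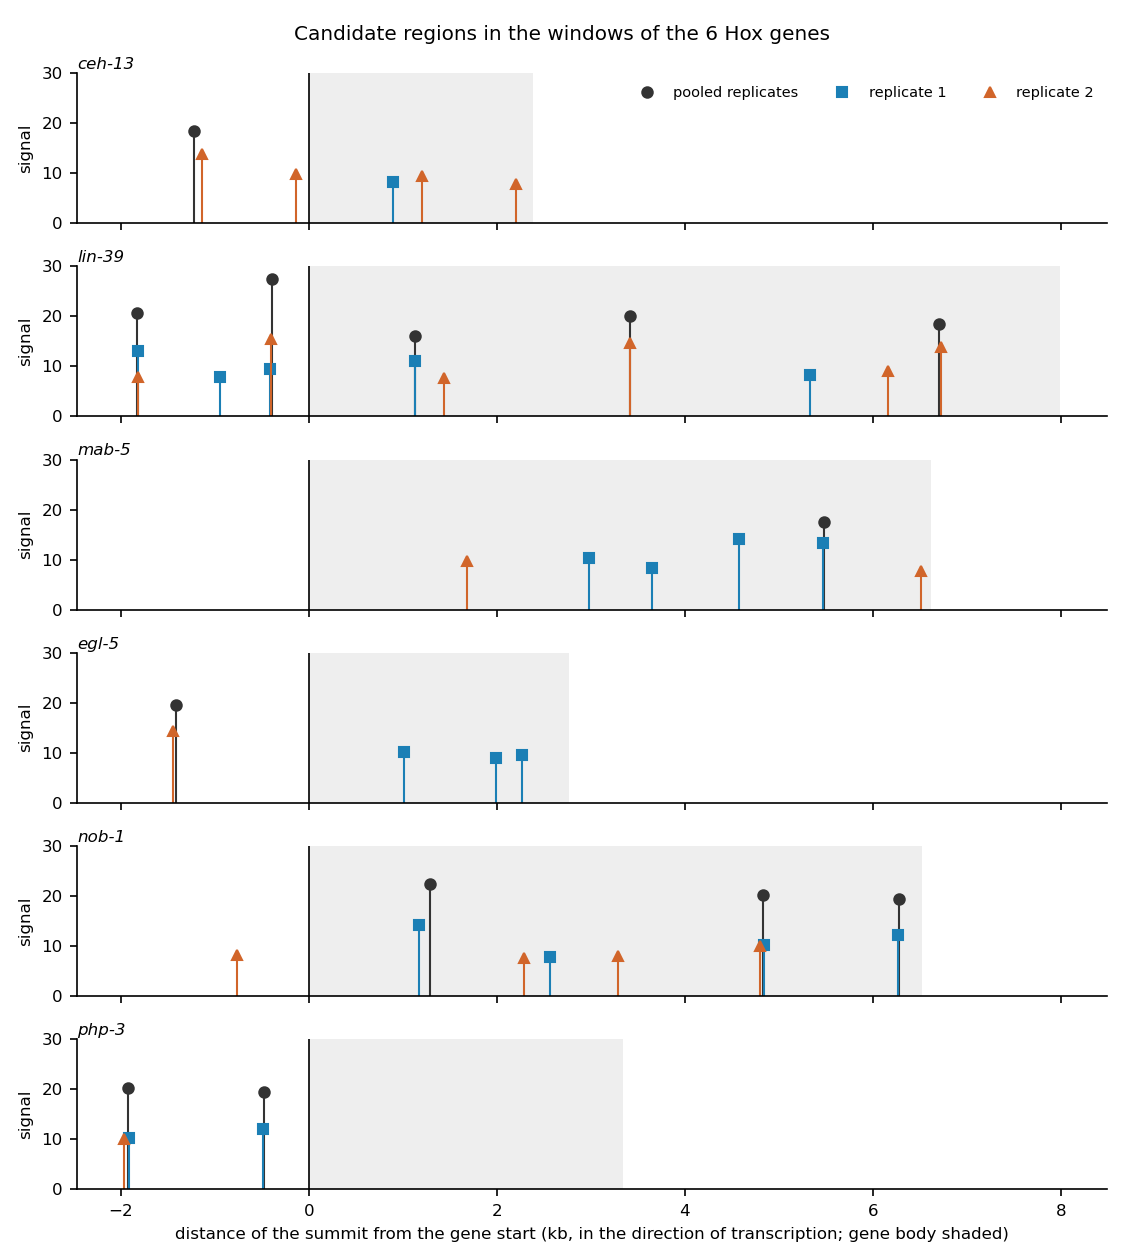
Candidate summits in the windows of the 6 Hox genes by distance from the gene start (kb, in the direction of transcription, gene body shaded), with signal on the vertical axis from 0 for the pooled replicates (circles), replicate 1 (squares) and replicate 2 (triangles). At lin-39 both replicates have summits at 2 upstream locations, while at mab-5 and egl-5 no replicate 1 summit coincides with a replicate 2 summit.

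The other members of the Antennapedia superclass numbered 21, of which 20 had a pooled summit, against 75.6% of all genes. Their pooled signals ran from 14.3 to 29.5, with a median of 19.9. The highest was ceh-30, and the lowest was vab-7, an even-skipped homologue that patterns the posterior, with 14.3 (rank 27571), 10.5 in replicate 1 and 9.75 in replicate 2. The highest pooled summit was matched in both replicates at 7 of the 20, against 29.7% of all genes with a pooled summit. At cog-1, an Nkx6 homologue that acts in the ASE taste neurons and the vulva, the intron summit had 22.9 in the pool, 10.9 in replicate 1 and 13.6 in replicate 2, with the replicate summits 10 bp apart. At ceh-23, a gene expressed in neurons, the values at the pooled summit 122 bp upstream were 23.2, 11.8 and 10.1 in the same order. At ceh-27, of the NK-2 type, they were 23.2, 12.9 and 8.27. The Distal-less homologue ceh-43 had 22.8 in the pool and 16.1 in replicate 1 (rank 1573), with no replicate 2 summit within 100 bp. Its highest value in replicate 2 was 10.8, at 1324 bp upstream.

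The paired-like class numbered 12, with a pooled summit at 11, against 75.6% of all genes and 88.5% of those with long windows. Its median window of 6255 bp lay in the long bin, and its pooled signals ran from 15.4 to 25.4. The highest was ceh-37, an Otx homologue that acts in the AWB olfactory neurons, with 25.4 (rank 2353) in an intron 6206 bp from its start. Replicate 1 had 13.8 there (rank 3801) and replicate 2 had no summit within 100 bp. The lowest was unc-30, which specifies GABA motor neurons, with 15.4 in the pool, 11.5 in replicate 1 and 14.4 in replicate 2, each at a different location. At ceh-10, needed for the AIY and CAN neurons, the pooled summit 1112 bp upstream had 22.9, with 12.8 in replicate 1 and 7.85 in replicate 2, and at ceh-8, a retinal homeobox homologue, the values were 22.6, 12.1 and 7.77. Both replicate 2 values were close to the 7.41 at which that list ends. The Pax6 homologue vab-3, named because its window of 21691 bp held more summits than that of any other homeobox gene, had 13 pooled, 13 replicate 1 and 11 replicate 2 regions. Its highest regions were 15.2 (rank 2270) in replicate 1 and 16.7 (rank 1049) in replicate 2, 12199 bp apart, and its highest pooled signal was 22.2.

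All 7 LIM genes had summits in each of the 3 lists, against 57.4% of all genes. Their median window of 6964 bp lay in the long bin, where 88.5% of all genes had a pooled summit. The pooled signals ran from 17.8 to 27.6 with a median of 22.1, against 19.7 for all genes. In the replicates the LIM medians were lower than those of all genes, at 10.6 against 11.3 in replicate 1 and 9.38 against 11.1 in replicate 2. At lim-6, which acts in the left ASE neuron and in GABA neurons, the pooled signal was 27.6 (rank 1283) in an intron 3574 bp from the start. The replicates had 8.50 (rank 23482) and 11.8 (rank 7520) there, so that a region of moderate or low rank in each replicate was high in the pool. A neighbouring pooled region of lim-6, at 2220 bp from the start, had 24.4, with 8.37 in replicate 1 and 10.5 in replicate 2. At ttx-3, needed for the AIY interneurons, an exon summit near the end of the gene had 23.03 in the pool and 17.02 in replicate 2 (rank 881), and replicate 1 had no summit within 100 bp and at most 8.93 in the window. At mec-3, a gene of the touch receptor neurons, the summit 1657 bp upstream had 22.6 in the pool and 11.1 in replicate 2, again with no match in replicate 1. The start of ugt-43 was nearer to it, at 1064 bp. The lowest LIM gene was lim-7, with 17.8 in the pool, 10.6 in replicate 1 and 9.38 in replicate 2.

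Among the smaller classes, ceh-32, a Six3/6 homologue of the SINE class, had 27.8 (rank 1218) in an exon, with 15.97 in replicate 1 (rank 1674). The highest replicate 2 summit, of 12.1 (rank 6753), was 230 bp away, beyond the limit for a match. The POU gene ceh-18, which acts in the gonadal sheath cells, had 25.8 at a summit in its last part, 14281 bp from its start and 1068 bp from that of ttr-48, with 12.4 and 13.1 in the replicates. Both replicates had a higher region of ceh-18 in an intron, with 16.4 in replicate 1 and 14.02 in replicate 2, 290 bp apart. The CUT class ran from 15.8 at ceh-39, an X-linked signal of sex determination, to 22.2 at ceh-48, which had 15.05 in replicate 1 and no summit in replicate 2. None of the 6 CUT genes and none of the 3 SINE genes had its highest pooled region matched in both replicates, where 29.7% of all genes with a pooled summit did. With 5 CUT and 3 SINE genes having a pooled summit, these counts are too small to set the classes apart. In the TALE class, ceh-40 had 19.4 and ceh-60 had 18.8, and ceh-20, a Hox cofactor gene, had no pooled summit and 8.82 in replicate 2 alone.

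Of the 25 genes given no class here, 22 had a pooled summit, against 75.6% of all genes. Their pooled signals ran from 13.999 at ceh-100 to 31.3 at ceh-83, with a median of 20.02. The highest region was matched in both replicates at 13 of the 22, against 29.7% of all genes with a pooled summit. The values at ceh-79 were 23.5 in the pool, 12.7 in replicate 1 and 13.9 in replicate 2, with replicate summits 75 bp apart. At ceh-54 they were 23.3, 10.8 and 12.9, at a summit 1056 bp upstream that also lay in the window of daf-9, the gene of a cytochrome P450 that makes the hormone of the receptor DAF-12. At ceh-7 they were 24.7, 15.01 and 9.78, at a summit 412 bp upstream. In contrast, ceh-74 had 27.1 in the pool and 16.7 in replicate 2 (rank 1039), with no match in replicate 1. The neighbours ceh-81 and ceh-82 shared their highest pooled region, of 19.2.

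Across all homeobox genes, the highest pooled region was matched in both replicates at 31 of 85, against 22.4% of all genes, or at 31 of the 78 with a pooled summit (39.7%), against 29.7%. Of the rest, 20 were matched in replicate 1 alone, 19 in replicate 2 alone and 8 in neither. Over all 156 distinct pooled regions in homeobox windows, 30.1% were matched in both, against 20.5% of all 30000 pooled regions. The difference was not tested, and the pooled list shares its reads with both replicates.

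A comparison of the replicates that does not use the pool gave a lower share. Both replicates had a summit at 68 genes, and their highest regions lay within 100 bp of each other at 14 of them (20.6%), against 15.9% of all genes with a summit in both. Of all 85 homeobox genes this is 16.5%, against 9.82% of all genes. The 14 were ceh-83, ceh-75, ceh-30, lim-6, ceh-79, ceh-54, cog-1, ceh-87, ceh-17, lin-11, ceh-1, ceh-82, ceh-36 and ceh-93. The median distance between the highest summits of the replicates was 1238 bp, and 30 of the 68 genes had them within 1000 bp. These distances were not summarised over all genes, so they do not set homeobox genes apart. Spearman's rho of the highest signals in both replicates was 0.120 over the 68 genes and 0.145 over the 12352 genes of the whole annotation with a summit in both. The order of these values turned under every alternative tried. It was 0.348 against 0.162 with 1000 bp upstream, 0.228 against 0.150 with 5000 bp and 0.362 against 0.169 with the gene body alone. With the 2000 bp upstream alone it was 0.146 against 0.074, and with summits nearest to the gene's own start 0.173 against 0.132. These are correlations across genes, whose windows can share regions, and are given as descriptions.

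**Figure D5:**
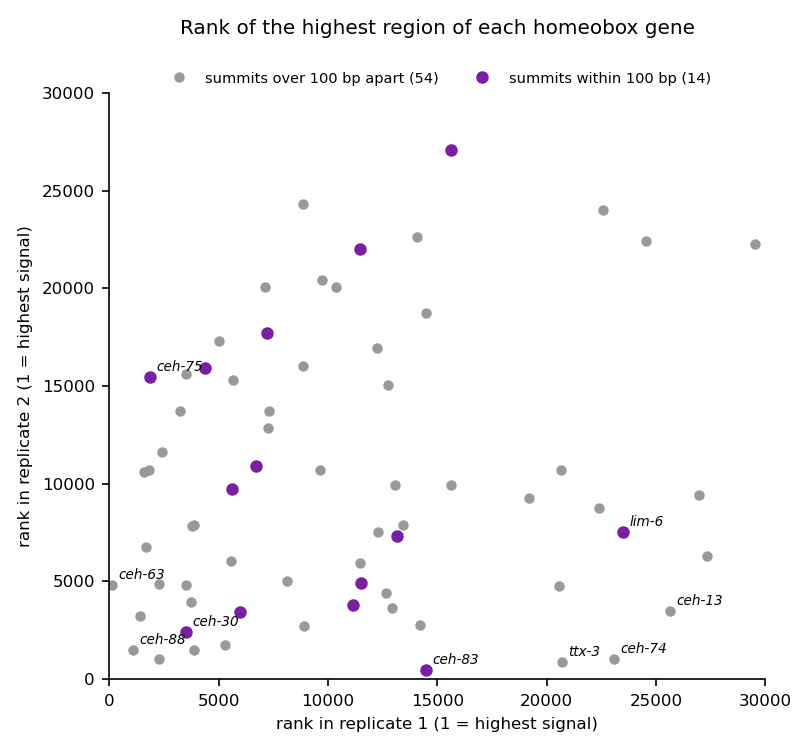
Rank of the highest region in replicate 1 (horizontal axis) and replicate 2 (vertical axis) for the 68 homeobox genes with a summit in both lists, where 1 is the highest signal. Purple points are the 14 genes whose replicate summits lie within 100 bp; the points are spread over the plot, and ceh-74 and ttx-3 are high in replicate 2 and low in replicate 1, while ceh-83 is high in replicate 2 and near the middle in replicate 1.

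The 3 genes with the largest rank difference in each direction were as follows. Replicate 2 ranked ceh-13 at 3464, ceh-74 at 1039 and ceh-62 at 6300, where replicate 1 had them at 25663, 23077 and 27331. The opposite was seen at ceh-89 (8853 in replicate 1, 24326 in replicate 2), ceh-75 and ceh-40 (7115 and 20046). These ranks mostly belong to different locations. The highest regions of the replicates lay from 1559 bp (ceh-74) to 4211 bp (ceh-62) apart, except at ceh-75, with 26 bp. At ceh-63, named after its values were seen, replicate 1 had the region of highest rank among the 85 genes in any of the 3 lists, 22.3 at rank 139, in an exon 549 bp from the start. The pooled region 86 bp away had just 16.9 (rank 16955), and the highest replicate 2 region, of 12.999 (rank 4815), lay elsewhere in the gene. At ceh-88, also named after its values were seen, the same exon location had 16.4 in replicate 1 (rank 1411) and 15.8 in replicate 2 (rank 1494), yet 21.2 in the pool (rank 6760). At both genes the rank in a replicate was far from that in the pool.

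By position, the highest pooled summit lay upstream of the gene at 33 of the 78 genes (42.3%), against 44.8% of all genes, in an exon at 19 (24.4% against 32.2%) and in an intron at 26 (33.3% against 23%). The 33 upstream summits lay 41 to 1971 bp from the start, with a median of 1097 bp, and 10 lay within 500 bp. The upstream distances were not summarised over all genes. The nearest protein-coding start was that of the homeobox gene itself at 64 of the 78 (82.1%), against 68.6% of all genes. The summit was in the window of another protein-coding gene as well at 24 (30.8%), against 48.7%. None of these differences was tested. The shares by position were not split by window length, and the homeobox windows were longer (median 5306 bp against 4027 bp).

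By chromosome, 25 homeobox genes were on X, and 24 of them had a pooled summit, against 83.2% of all X genes. Their median pooled signal was 19.3, against 20.4 for all X genes. A pooled summit was present at 12 of 15 on II (74.8% of all genes there), at 14 of 15 on III (76.4%), at 6 of 6 on IV (73.1%), at 14 of 14 on V (73.4%) and at 8 of 10 on I (75.2%). The median signals were 21.04 on II and 19.9 on III, against 19.4 and 19.7 for all genes. They were 20.1 on IV and 20.7 on V, against 19.6 and 19.4, and 17.8 on I, against 19.6. In the pooled list, homeobox genes thus had the lower median on X and I and the higher on the other 4 chromosomes. Both replicates had the same order on IV, V and X, but not on I, II and III. In replicate 2, however, the medians were nearly equal on V (10.99 against 10.98) and X (11.66 against 11.68). On IV, 4 homeobox genes had a replicate 2 summit. In replicate 1 the median was 11.9 on I and 10.1 on II, against 11.2 for all genes on each. In replicate 2 it was 10.4 on III, against 11.1.

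The 7 homeobox genes without a pooled summit were ceh-12, ceh-20, ceh-21, ceh-45, ceh-57, ceh-58 and ceh-84. Of these, ceh-12, an HB9 homologue that acts in motor neurons, and ceh-84 had no summit in any list. The nearest pooled summit lay 458 bp beyond the window of ceh-12 and 3549 bp beyond that of ceh-84. Those of ceh-45 and ceh-21 lay 78 bp and 158 bp outside, measured to the nearer end of the window. For ceh-21 this was the end past the gene body, so more upstream sequence would not have counted that summit. The CUT gene ceh-21 had 11.3 in replicate 1 and 10.8 in replicate 2, at locations 623 bp apart. The other 4 had a summit in replicate 2 alone, of 8.01 to 9.82.

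A further 15 homeobox genes with other symbols, such as the POU gene unc-86 and the Meis gene unc-62, were described in the same way. Their median window was 6175 bp, in the long bin. A pooled summit lay in 14 of their windows, against 75.6% of all genes and 88.5% of those with long windows. None was in the top 1000 of the pooled list, against 5.28% of all genes. Their median pooled signal was 21.1, with the highest, 26.9, at psa-3. At 5 of them the highest pooled region was matched in both replicates, against 22.4% of all genes. At unc-62, which encodes a partner of Hox proteins, replicate 2 had a region of 21.4 (rank 131), replicate 1 had at most 11.6 (rank 8822) and the pool 21.4 (rank 6513). At unc-86, which specifies touch neurons among others, the intron summit of highest pooled signal had 21.2, with 10.9 and 10.1 in the replicates.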

How the data were processed

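ChIP-seq regions of eGFP-tagged NHR-237 in L3 larvae were taken from 3 ce11 lists of peaks and background (replicate 1, replicate 2, pooled) and the ce11 IDR list. Per the submitters' file lists, the authors called regions on each replicate and on the pooled alignments against a control. The labels and file lists name no peak caller, aligner or IDR threshold. The signal is the authors' deposited peak value, whose scale is not stated, and it was used within lists. Read depth is unknown, so no interval for counting error was made. Lists in ce10 were not used, since the annotation (Ensembl release 115, WBcel235) is ce11 and no position was converted. The highest ends in the lists lay within the reference chromosome lengths.

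Summits were assigned to gene windows, and positions are 1-based. Counts were set beside the same over all protein-coding genes. With 1 group and 2 replicates, no test was made. The replicates are labelled as separate biological replicates. The assignment recovered 200 of 200 summits planted among 19973 genes in simulated data. They were planted inside the same windows that the assignment uses, so this checks the code and not the real lists. The members, classes, motifs and alternatives were chosen with earlier results of these data known. Printed sequences exclude chromosome I. Named genes were the 20 of highest pooled signal, the Hox genes, the extremes of each class of at least 4, those without a summit in any list, those with an IDR peak, those in the pooled top 1000 that were matched in both replicates, and the 3 in each direction whose replicate ranks differed most. Other genes named were chosen after their values were seen. Alternatives changed the window, the match distance, the top of the list and the list used. Python 3.11.15, numpy 2.4.6, pandas 2.3.3, scipy 1.17.1 and matplotlib 3.10.9 were used.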

Additional observations from a re-analysis of the deposited data

How the results depend on the processing

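No homeobox gene had an IDR peak with 5000 bp upstream, the one alternative that could have raised that count. Of 55 alternatives over all results, 31 left the value near that reported and 24 moved it. The tally is no measure of stability, because some outcomes were fixed. The other IDR alternatives could not change a count of 0, and the medians in the replicate lists were on another signal scale. With the 2000 bp upstream alone, 44 genes had a pooled summit (48.6% of all genes) and 25 had one in all 3 lists (24.3%). With that window, 18 had the highest region matched in both replicates (11.2%). With the gene body alone the last 2 counts were 43 and 18, against 34.6% and 14.7% of all genes. With the upper part of each list, the regions of signal above its median, 32 genes had a summit in all 3 (28.1%). The count in the pooled top 1000 was 9 with 5000 bp upstream (above the 8.4% of all genes, where the reported count was below). The count was 1 with the gene body alone (2.89% of all genes) and 1 with summits nearest to the gene's own start (3.49%). In the top 500 it was 1 (2.65%) and in the top 2000 it was 7 (9.97%). With the replicate 1 list in place of the pool it was 1 (5.12%), and with the replicate 2 list 2 (5.06%). The highest region was the same in both replicates at 9 genes with 5000 bp upstream (9.91% of all genes) and at 9 with a match within 50 bp (6.63%). The median signal was 19.1 with 1000 bp upstream, 22.02 with 5000 bp, 18.8 with the gene body alone, 18.8 with upstream sequence alone and 19.3 with summits nearest to the own start. It ran from 11.1 to 11.5 on the scale of either replicate's list. Spearman's rho was 0.348 with 1000 bp upstream, 0.228 with 5000 bp and 0.362 with the gene body alone, against 0.162, 0.150 and 0.169 over all genes. It was 0.146 with upstream sequence alone (0.074 over all genes) and 0.173 with summits nearest to the own start (0.132). It thus stood above all genes in every alternative and below them in the reported value alone. Causes were not tested.

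The share of homeobox genes with a pooled summit stood above that of all genes under each window tried, with 44 of 85 beside 48.6% for upstream sequence alone and 82 of 85 beside 89.6% for 5000 bp. The median signal was below that of all genes with 1000 bp upstream (19.3 for all genes), with the gene body alone (19.1) and in replicate 2 (11.121 beside 11.099). No paired analysis was possible because there was 1 group. The depth is unknown, there are 2 replicates and no untagged sample, and the lists hold background by design, so a summit here is a candidate region and not a called peak.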
